A study of Drosophila melanogaster with 2 samples.

Results

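Among the strongest entries of 1 of 2 replicate peak lists, 629 had no counterpart in the other replicate or in the authors' optimal list of pooled peaks. These peaks, called replicate 2-only, are described here. The data are chromatin immunoprecipitation followed by sequencing (ChIP-seq) of dmrt93B, a DM-domain protein, in Drosophila melanogaster, made from whole wandering larvae of the third instar with both sexes pooled. All larvae were of 1 transgenic line, stably expressing dmrt93B with GFP at its C-terminus, and the 2 samples are biological replicates of this single group, with no untagged or untreated group analysed here. Both sample descriptions speak of an input control while the antibody label names dmrt93B, so the results hold for libraries labelled dmrt93B whose nature the labels leave in conflict. Whole larvae mix many tissues, so a peak does not say in which cells it arose.

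The members were selected on measured values. The starting point was the 4159 replicate 2 entries with the highest signal, the strength that the authors' peak caller gave each peak. That is the length of the authors' optimal list, which holds pooled peaks that passed a threshold on the IDR (irreproducible discovery rate). Those with no summit of the full replicate 1 list of 30000 entries and no summit of the optimal list within 200 bp were kept, leaving 629 of 4159 (15.1%). The remaining 3530 entries are called the shared entries below, since all lie near a summit of at least 1 of those lists. They include 483 with an optimal summit but no replicate 1 summit, so 1112 of the 4159 (26.7%) lacked a replicate 1 summit. Signals and missing counterparts therefore follow from the choice and are descriptions, whereas genomic position and sequence were not used by it. By the rule, no member has a replicate 1 summit within 200 bp, so no replicate 1 signal is set beside a member's. The replicate 1 list ends at a signal of 18.5, and signals of the 2 lists are not on a common scale.

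Promoters in Drosophila are often read in both directions, with TSSs (transcription start sites) of neighbouring genes facing apart across a short gap. Many genes used in all cells have promoters with the DNA replication-related element (DRE), bound by Dref, the shorter BEAF-32 site inside it, Motif 1, bound by M1BP, or the element called Ohler 7. DM-domain proteins such as Doublesex bind a short AT-rich palindromic site through a zinc module in the minor groove.

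The sequences at 7 of the promoter members are printed to show what these sites look like, the 4 strongest that could be shown and the next with a BEAF-32 site or a DRE. Each window reaches 50 bp either side of the summit, lies outside annotated UTRs and is read from the NCBI Release 6 genome (dm6 coordinates) on the strand of the nearest TSS, 5′ to 3′. Capitals mark matches on either strand to TATCGATA (the DRE), CGATA (the BEAF-32 site, which every DRE contains), CANCNCTA (the core of Ohler 7), CAGCTG (an E-box) or CACACA (a CA repeat).
Gk1, chr3L:205897-205997, minus strand: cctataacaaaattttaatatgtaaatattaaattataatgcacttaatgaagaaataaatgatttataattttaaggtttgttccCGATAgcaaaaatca
CG3792, chr2L:4977119-4977219, plus strand: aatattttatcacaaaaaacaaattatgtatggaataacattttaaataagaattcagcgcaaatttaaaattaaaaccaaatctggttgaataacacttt
Ip259, chr2L:10408242-10408342, plus strand: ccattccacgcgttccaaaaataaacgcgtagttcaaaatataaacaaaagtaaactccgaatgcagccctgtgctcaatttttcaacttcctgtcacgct
phr6-4, chr2L:20645475-20645575, minus strand: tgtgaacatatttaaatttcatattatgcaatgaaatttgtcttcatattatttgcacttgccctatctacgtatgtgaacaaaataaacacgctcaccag
CycE, chr2L:15746989-15747089, minus strand: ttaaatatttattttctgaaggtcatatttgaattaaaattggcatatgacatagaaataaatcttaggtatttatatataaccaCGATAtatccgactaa
ghi, chr3L:9451754-9451854, plus strand: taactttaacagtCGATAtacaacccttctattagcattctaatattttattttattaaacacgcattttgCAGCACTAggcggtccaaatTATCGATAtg
CG7115, chr2L:7821400-7821500, plus strand: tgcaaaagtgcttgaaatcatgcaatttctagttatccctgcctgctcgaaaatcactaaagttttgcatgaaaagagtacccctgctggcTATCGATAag
Of the first 5 windows, 3 hold no match to these motifs, and their GC content runs from 19.8% (Gk1) to 40.6% (Ip259). The windows of ghi and CG7115 carry their DRE on the side facing the TSS.

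Signals of the members ran from 61.4 to 282, with a median of 78.8 (quartiles 67.4 and 104), whereas shared entries ran from 61.4 to 1813 with a median of 111. The first 363 ranks of the replicate 2 list held no member. The −log10 q value was at its ceiling of 4.04 for all 629 members and for all 3530 shared entries, so it does not rank them. Near the rank limit, the last members lay by CG5861, CG10366 and Edem1, each with a signal of 61.4, and the next entries that met the distance rule, by RasGAP1, Rchy1 and CG10576, had 61.3, 61.3 and 61.2. Near the distance limit, entries by lncRNA:CR44151, RpS3A and His3.3B lay 201, 202 and 202 bp from the nearest replicate 1 or optimal summit and were kept, and entries by dnc, Atg2 and by lay at 200, 199 and 197 bp and were not.

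Most members lay far from anything in the replicate 1 list. The nearest replicate 1 summit was a median of 9892 bp away (quartiles 4406 and 17322), 570 members (90.6%) had none within 1 kb, and 458 (72.8%) had none within 5 kb. An interval of the replicate 1 list overlapped that of 24 members (3.82%). The pooled list, made from both libraries together, had a summit within 200 bp of 117 members (18.6%) and of 3525 of the 3530 shared entries (99.9%). Where a pooled summit existed its rank ran from 4172 to 24788, with a median of 5396, and the best ranked was at Trf4-1. Pooled summits were present at 13.3% of the promoter members and at 40.3% of the others. Members within 200 bp of another member numbered 10. Others lay just past that limit, such as those at X positions 2222378 and 2222579, by Vinc, whose intervals overlap. Such neighbours are counted as separate members.

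The strongest members were mostly promoter peaks, and 6 of the first 15 were nearest to genes known by a CG number. Of the 15 with the highest signal, 13 lay at promoters, meaning within 500 bp of an annotated TSS, and 9 of these 13 had TSSs on both strands in reach. The strongest, at 3R position 11226696, had a signal of 282 at rank 364, lay at -66 bp from the TSS of CG17726 (negative positions are upstream), and was 10355 bp from the nearest replicate 1 summit. The next, at 3L position 205947, had a signal of 259 and lay at -103 bp from Gk1, which encodes a glycerol kinase, between it and CG13876. Signals of 247 were found at -144 bp from CG31635 and at -143 bp from CG3792, whose promoter region also reaches Gmd, an enzyme of GDP-fucose synthesis.

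Ribosomal, repair and splicing genes appeared among the next. The peak at -60 bp from Ip259 (2L position 10408292, signal 244) was also at -60 bp from a TSS of RpS27A, which encodes a ubiquitin and small-subunit ribosomal protein fusion, and it was 39634 bp from any replicate 1 summit. phr6-4, the (6-4) photolyase, had a signal of 242 with the summit at -68 bp, and SIDL had 239 with the summit at -174 bp. CG3165 followed with 209. PIG-Q, of the GPI anchor pathway, had 208 and shares its promoter region with U2af50, the large subunit of the splicing factor U2AF. Sfmbt, a Polycomb group protein, had 207 with the summit at -151 bp, HPS1 had 206 and shares its promoter region with Ciao1, an iron-sulfur assembly gene, and CG5335 had 206. The remaining entries of this set were the CG30122 promoter (signal 203), an intron of the kinase gene Btk (203) and an intron of hts, the adducin gene (199). None of the 15 had a pooled summit within 200 bp.

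Promoters held 505 of 629 members (80.3%, 95% Wilson interval 77.0 to 83.2), against 1502 of 3530 shared entries (42.5%, interval 40.9 to 44.2). The difference was 37.7 percentage points (95% Newcombe interval 34.1 to 41.1; two-sided Fisher's exact test, Benjamini-Hochberg adjusted over 7 classes, p = 8.41e-71). Introns held 90 members (14.3%) against 39.0% of shared entries (difference -24.6 points, interval -27.6 to -21.3, exact adjusted p = 4.69e-36), and intergenic sequence held 19 (3.02%) against 16.5% (difference -13.4 points, interval -15.1 to -11.4, exact adjusted p = 1.13e-23). The 4 exon classes were rare in both sets and did not pass. They held 5 members in 5' UTRs, 1 in a coding exon, 8 in 3' UTRs and 1 in another exon, with exact adjusted p of 0.272, 1, 0.12 and 0.158. These tests count peaks of 1 library as independent and cover counting error only, and the read depth is unknown. Since a single library holds the members, no test over samples was possible.

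**Figure D1:**
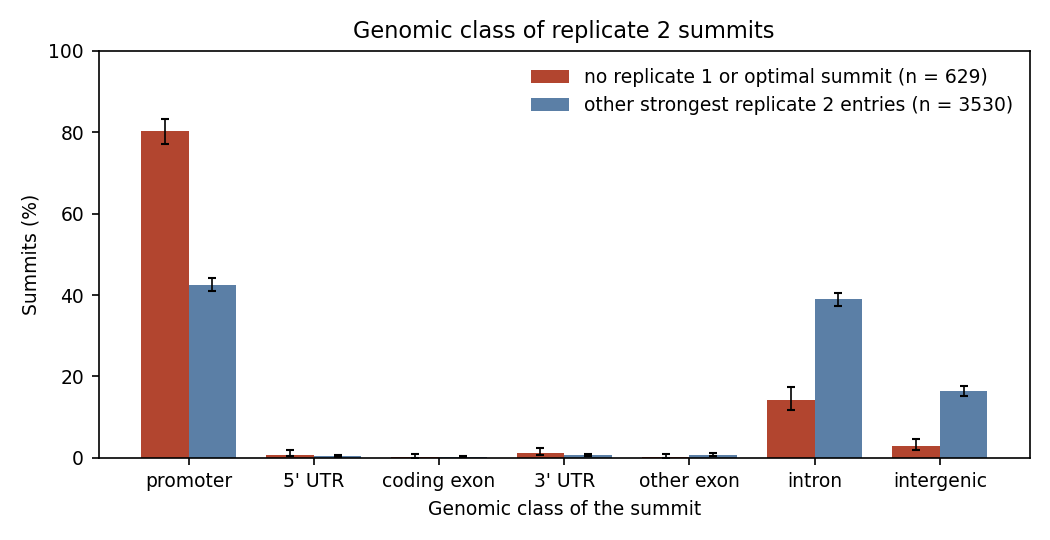
Share of summits (%) in each genomic class for the replicate 2-only members (red, n = 629) and the shared entries (blue, n = 3530), with 95% Wilson intervals. Promoters hold 80.3% of members and 42.5% of shared entries, and introns and intergenic sequence hold smaller shares of the members.

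The promoter share went with the absence of a replicate 1 summit more than with the absence of an optimal one. The 483 entries with an optimal summit and no replicate 1 summit had 70.8% at promoters (interval 66.6 to 74.7). In the 111 entries with a replicate 1 summit and no optimal summit it was 38.7% (interval 30.2 to 48), and in the 2936 with both it was 38%. Members exceeded the entries with an optimal summit alone by 9.48 points (interval 4.39 to 14.6, Fisher's exact test p = 0.000286), a comparison added after the values were seen. Median signals of these sets were 78.8 for the members, 103 with the optimal summit alone, 66.2 with the replicate 1 summit alone and 115 with both. Beyond rank 2079, where signals are closer, 78.8% of members and 36.9% of shared entries lay at promoters (Fisher's exact test p = 2.21e-60).

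**Figure D2:**
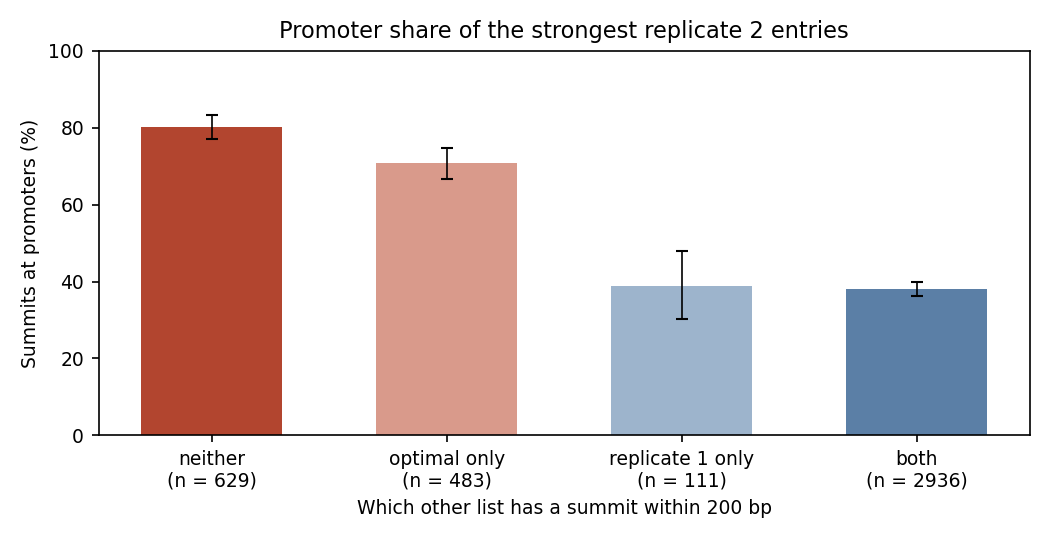
Promoter share (%) of the 4159 strongest replicate 2 entries by which other list has a summit within 200 bp (neither, optimal only, replicate 1 only, both), with 95% Wilson intervals. The 2 sets without a replicate 1 summit stand at 80.3% and 70.8%, and those with one at 38.7% and 38%.

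The rule applied with the replicates exchanged gave a much smaller set of another kind. Only 87 of the 4159 strongest replicate 1 entries (2.09%) lacked a replicate 2 and an optimal summit. Promoters held 26 of them (29.9%) against 32.5% of the other strongest replicate 1 entries (difference -2.63 points, interval -11.4 to 7.77, Fisher's exact test p = 0.645). Their nearest replicate 2 summit was a median of 550 bp away, and 71 (81.6%) had a pooled summit within 200 bp, against 18.6% of the replicate 2-only members. Across the whole lists, promoters held 29.2% of the replicate 2 entries and 14.9% of the replicate 1 entries, and the gap was present beyond rank 15000, with 20.6% and 11%. An entry meeting the rule became more frequent down the replicate 2 list, with 0.8% of ranks 1 to 500, 10.9% of ranks 1001 to 2000 and 27.6% of ranks 3001 to 4159. In replicate 1 the same 3 ranges gave 0, 0.1% and 6.3%. Of the 13945 protein-coding genes, 6472 (46.4%) had a promoter summit anywhere in the full replicate 2 list and 3392 (24.3%) in that of replicate 1.

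**Figure D3:**
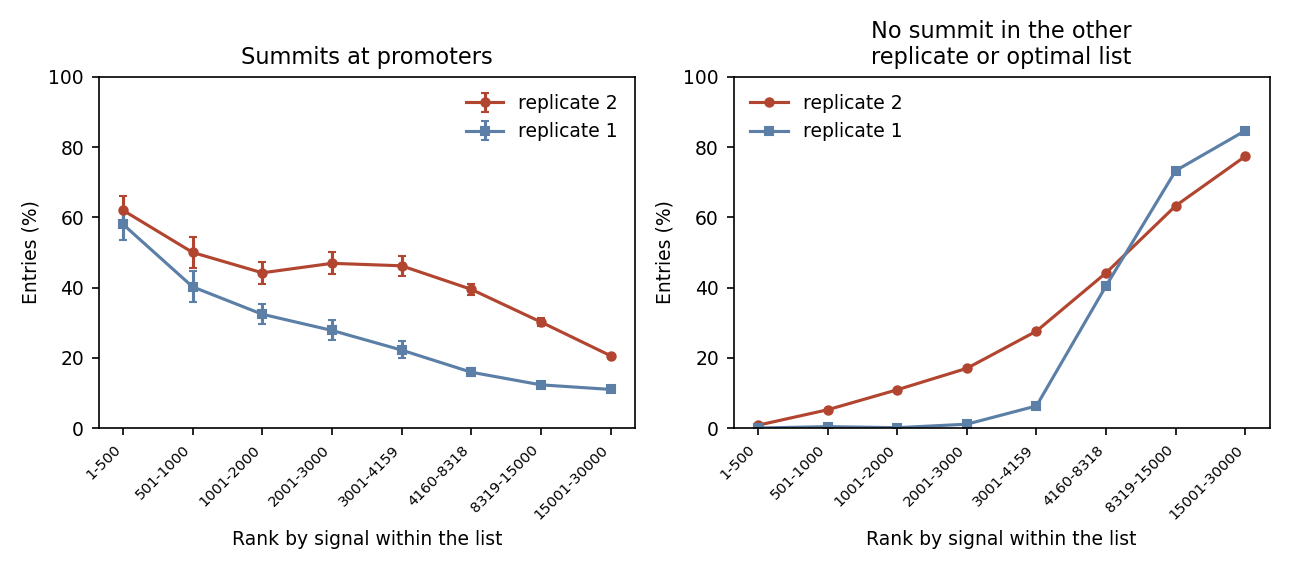
Left, share of entries at promoters (%) by signal rank within the full replicate 2 list (red circles) and replicate 1 list (blue squares), with 95% Wilson intervals; right, share of entries with no summit within 200 bp in the other replicate list or the optimal list. Replicate 2 lies above replicate 1 on the left in each rank range, and on the right it is higher up to rank 8318 and lower beyond.

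Promoter members lay mostly just upstream of the TSS. Their median position was -73 bp (quartiles -128 and -7) against -122 bp (quartiles -227 and -41) for the shared promoter entries. By which other list had a summit, the shared promoter entries had medians of -90 bp with the optimal summit alone, -69 bp with the replicate 1 summit alone and -139 bp with both. These distances are described without a test. Within 100 bp of the TSS lay 54.5% of the promoter members and 34.4% of the shared promoter entries, while beyond 200 bp upstream the ranges of 100 bp held 8.32%, 1.58% and 1.19% of members against 15.6%, 9.05% and 5.26%. Upstream summits made up 392 of 505 (77.6%) against 1251 of 1502 (83.3%), a difference of -5.67 points (interval -9.90 to -1.72, Fisher's exact test, adjusted p = 0.00502). With a promoter window of 1000 bp that call ended, at 75% against 76.1% (exact p = 0.571).

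**Figure D4:**
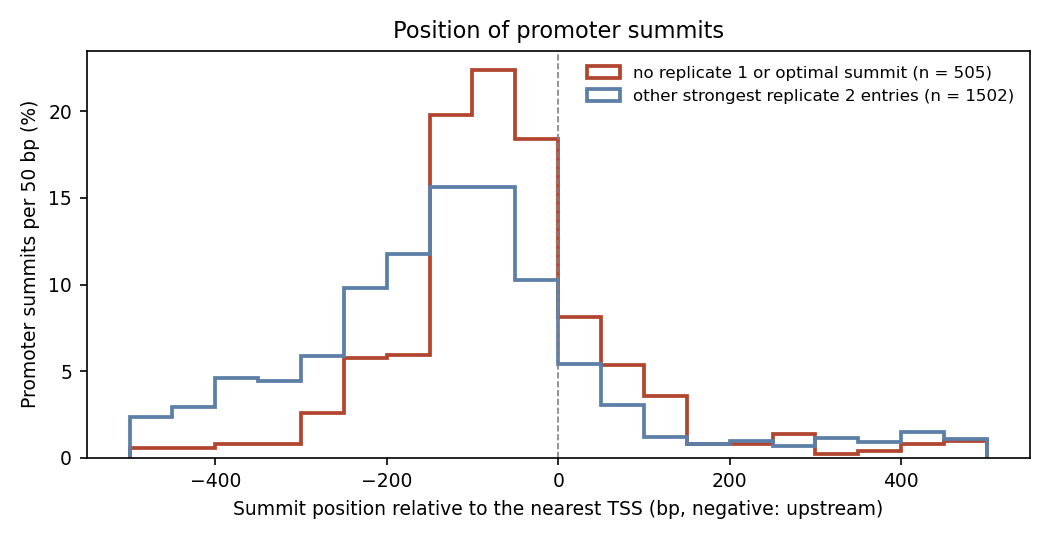
Distribution of promoter summits around the nearest TSS in bins of 50 bp (bp on the horizontal axis, negative values upstream; % of the set per bin) for 505 members (red) and 1502 shared entries (blue). The members peak within 100 bp upstream and have few summits beyond 300 bp upstream.

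TSSs on both strands were within 500 bp of 275 of the 505 promoter members (54.5%, interval 50.1 to 58.7), against 521 of 1502 shared promoter entries (34.7%, interval 32.3 to 37.1). The difference was 19.8 points (interval 14.8 to 24.7, Fisher's exact test, adjusted p = 1.52e-14). Among the shared promoter entries the share was 50.3% (172 of 342) with an optimal summit and no replicate 1 summit, and 30.1% with a replicate 1 summit. The members' difference from the first of these was not tested. In 267 of the 275 members the nearest such TSSs pointed apart, with a median gap of 277 bp (quartiles 204 and 365), and in 220 of these (82.4%) the summit lay between them. The 502 shared entries of that kind had a median gap of 308 bp (quartiles 236 and 414), with 84.5% of summits between. The nearest TSS was of a protein-coding gene for 490 promoter members (97.0%) and of a non-coding RNA gene for 15. No promoter member was nearest to a tRNA, snRNA, snoRNA or rRNA gene.

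Of 14 motifs searched on both strands in the windows of 101 bp, 7 differed between members and shared entries, 5 being more and 2 less frequent in the members. The BEAF-32 site CGATA was in 157 members (25%) against 14.0% of shared entries (Fisher's exact test, adjusted p = 5.66e-10), and the DRE, which contains it, was in 28 (4.45%) against 1.27% (adjusted p = 6.03e-06), all 28 at promoters. Among promoter entries alone the BEAF-32 site was in 27.5% of members and 19.1% of shared entries (exact adjusted p = 0.0013) and the DRE in 5.54% and 2.80% (exact adjusted p = 0.0497). Windows just upstream of all 13945 protein-coding genes held the site in 28.4% and the DRE in 6.21%, shares no lower than those at the member promoters. The Ohler 7 core (7.31% of members against 4.33%, exact adjusted p = 0.00776), the E-box CAGCTG (5.56% against 2.89%, 0.00662) and CACACA (9.06% against 6.15%, 0.0203) also passed. Windows upstream of all protein-coding genes held these 3 in 6.68%, 7.64% and 6.82%, so the E-box was less frequent in members than there. Among promoter entries alone, a smaller set, the shares were 8.71% against 6.52% for Ohler 7, 5.74% against 3.40% for the E-box and 7.72% against 5.73% for CACACA, and none of the 3 passed (exact adjusted p of 0.173, 0.116 and 0.173).

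Of the DM-domain sites searched, only ACAATGT differed between members and shared entries. ACAATGT and TGTATCA are stretches of the consensus known for vertebrate DMRT1. ACAATGT was in 3 members (0.477%, interval 0.162 to 1.39) against 73 shared entries (2.07%, interval 1.65 to 2.59; Fisher's exact test, adjusted p = 0.00902), and among promoter entries alone in 0.594% against 1.73% (exact adjusted p = 0.173). TGTATCA was in 5 members (0.795%) against 1.02% (exact adjusted p = 0.875). Their backwards readings, TGTAACA and ACTATGT, were in 1.75% and 0.795% of members against 1.95% and 1.10% of shared entries (exact adjusted p of 0.875 and 0.855). Windows upstream of all protein-coding genes held ACAATGT in 1.3%, TGTATCA in 0.825%, TGTAACA in 1.13% and ACTATGT in 0.832%. The homeodomain site TAATTA was in 7.47% of members and 10.6% of shared entries (exact adjusted p = 0.0295), a call that ended in all 3 alternatives, with exact adjusted p of 0.164 among promoter entries (7.52% against 10.7%), 0.486 in windows of 25 bp either side and 0.0713 in windows of 100 bp either side. Upstream of all protein-coding genes it was in 5.67% of windows, a lower share than in either set. TATAAA (18.9% against 22.9%, exact adjusted p = 0.0506), the Motif 1 core GGTCACACT (1.27% against 0.510%, 0.073), TTAAAA (33.9% against 32.4%, 0.645) and GAGAGA (3.97% against 3.74%, 0.857) did not pass. The GC content at member summits had a median of 35.6% (quartiles 28.7 and 44.6), against 32.7% at shared summits (quartiles 27.7 and 39.6). In windows 500 bp either side the medians were 46.5% for members and 43.6% for shared entries, so both sets had lower GC content at the summit. Windows upstream of all protein-coding genes had a median of 40.6%.

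The promoter members reached 766 of the 13945 protein-coding genes (5.49%), and 53.5% of their summits were in reach of more than 1 such gene. Only 35 of the 766 genes (4.57%) had any replicate 1 promoter summit and 41 (5.35%) an optimal one, which largely follows from the choice. Counts for 42 gene lists, set by symbol, are read against that 5.49%, with no test. In 27 lists the share was higher. The optimal list reached 13.1% of all protein-coding genes and was above that in several lists too. Its shares were 27.3% for Mediator and RNA polymerase II factors, 22.7% for mitochondrial ribosomal proteins and 21.7% for vesicle coats and sorting. Peroxins and chromatin remodellers stood at 20% each and Polycomb genes at 17.6%. Lower than 13.1% were splicing factors (12.9%), ubiquitin conjugation (10.3%) and proteasome subunits (8.33%), among others. The lists held 123 genes with a member promoter summit, but for 41 of them another gene's TSS was nearer or, as at RpS27A, equally near. A peak between neighbouring genes is thus counted for both.

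Chromatin genes had some of the higher shares. Among Polycomb group genes, which keep developmental genes silent, 5 of 17 (29.4%, interval 13.3 to 53.1) had a member: Sfmbt, ph-d (signal 90.6), Jarid2 (88.2), Su(z)12 (85.4) and Psc (61.7). The Jarid2 and Su(z)12 summits lay 1 and 2 bp downstream of their TSSs. Of 30 genes in the chromatin remodelling list 7 had one (23.3%, interval 11.8 to 40.9). They were led by Chd1 (183, nearest to Bem46) and dom (146), which encode remodelling ATPases, Arp3 (127, nearest to msk) and Snr1 (97.5), a Brahma complex subunit. Arp3, which the list took in by symbol, is known from the actin-nucleating Arp2/3 complex rather than as a remodeller. Insulator and interband genes had 1 of 15, su(Hw), in the peak nearest to Polr2I, and core promoter factors had 1 of 7, woc.

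Cell cycle and general transcription genes followed. CycE, the G1 to S phase cyclin, had 2 member summits. The first, at -429 bp from a TSS and inside the gene, had a signal of 199, and the second, in an intron, had 168. With Dp, an E2F partner (78.9), CycT (75.1), Cdk1 (71.0), CycB3 and CycG, 6 of 27 cyclin, CDK and E2F genes had a promoter member (22.2%, interval 10.6 to 40.8). Mediator and RNA polymerase II factors had 10 of 66 (15.2%), led by Taf5 (197, between it and Pex6), Taf4 (119), the largest polymerase subunit gene Polr2A (112, nearest to CG11699) and Polr2F (111). Splicing factors had 5 of 31 (16.1%), with U2af50, SmD3 (161), Prp3 (89.7) and Sf3a2 (85.2) strongest.

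The organelle and trafficking lists detailed in this paragraph ran from 9.09% to 33.3%. Rab GTPase genes, also a trafficking list, stood at 2.78% (1 of 36), below the 5.49% of all protein-coding genes. Peroxins, which build peroxisomes, had 5 of 15 (33.3%, interval 15.2 to 58.3), with Pex6 (197), Pex23 (108) and a single summit (90.1) in reach of both Pex16 and Pex14. Mitochondrial ribosomal protein genes had 12 of 75 (16%, interval 9.40 to 25.9), but in 11 of the 12 another gene's TSS was nearer or equally near, as at mRpL53 (132, nearest AGO1), mRpL44 (97.5, nearest Snr1) and mRpL18 (80.2, nearest Taz). The exception was mRpL16 (82.8). The vesicle coat and sorting list had 9 of 60 (15%), led by deltaCOP (159), Sec6 (154), beta'COP (150) and Sec61alpha (139). It was set by symbol, so not all of its Sec genes are coat or sorting genes. Autophagy genes had 3 of 20, all in promoters nearest to a neighbour: Atg4b (195), Atg7 (154) and Atg9 (111). Vacuolar ATPase genes had 3 of 33 and oxidative phosphorylation genes 8 of 86 (9.30%), among them ND-42 (137, nearest to Cchl).

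Among translation genes, initiation and release factors had 7 of 54 (13%), led by eIF3c (165), eIF3a (129), eRF1 (106) and eRF3 (98.8). Cytosolic ribosomal protein genes had 8 of 92 (8.70%, interval 4.47 to 16.2), against 67 of 92 (72.8%) with an optimal promoter summit. The rule leaves out entries near an optimal summit, so the 2 shares are not independent. The 8 included RpS27A (244), RpL26 (156) and RpS26 (83.4). Ubiquitin conjugation and COP9 genes had 4 of 29 (Uba3, Cul1, Uba1 and APC4), the proteasome 4 of 48 (Rpn3, Rpt5, Rpn2 and Prosalpha6), and the RNA exosome and rRNA processing list 2 of 19 (Rrp6 and nop5). Notch pathway genes had 4 of 21, neur (96.3, nearest to hyx), Su(H) (90.6), mam (71.7, nearest to RN-tre) and mib1 (69.9).

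In 8 lists there was none. No member lay at the promoters of 185 chemosensory receptor genes (Wilson upper limit 2.03%), 124 cuticle protein genes (upper limit 3%), 32 snRNA genes, 17 RNA polymerase I and III subunit genes, 14 glycolysis genes, 13 sex determination and DM-domain genes, 8 Hox genes or 7 dosage compensation genes. The full replicate 1 list had promoter summits at 25.8% of the cuticle genes, 16.2% of the chemosensory genes and 8 of the 13 sex determination and DM-domain genes. Its share of all protein-coding genes was 24.3%. That list runs on to a signal of 18.5, whereas members come from the 4159 strongest replicate 2 entries. The optimal list, of 4159 entries, also had none at the cuticle, chemosensory, Hox and dosage compensation genes. It reached 5 of the 14 glycolysis genes, 4 of the 32 snRNA genes, 3 of those 13 genes and 1 of the 17 polymerase subunit genes. Cytochrome P450 genes had 1 of 87 with a member, Cyp1, which the symbol pattern took in although it encodes a cyclophilin. Ecdysone response genes had 1 of 21 (Eip63E). Among the histone genes His3.3B, a variant histone, was alone in having one (0.870%). tRNA genes had 1 of 295, tRNA:Trp-CCA-2-2, at the peak nearest to CG30122, and snoRNA genes 1 of 274, in the peak nearest to Uhg2. The remaining lists lay between 2.78% (1 of 36 Rab GTPase genes, Rab1) and 12.5% (1 of 8 chaperonin genes, CCT8). Among them were the heat shock list with 2 of 26, Hsp60A and Hsc70-3, and nucleoporin genes with 2 of 24, Elys and Nup133.

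**Figure D5:**
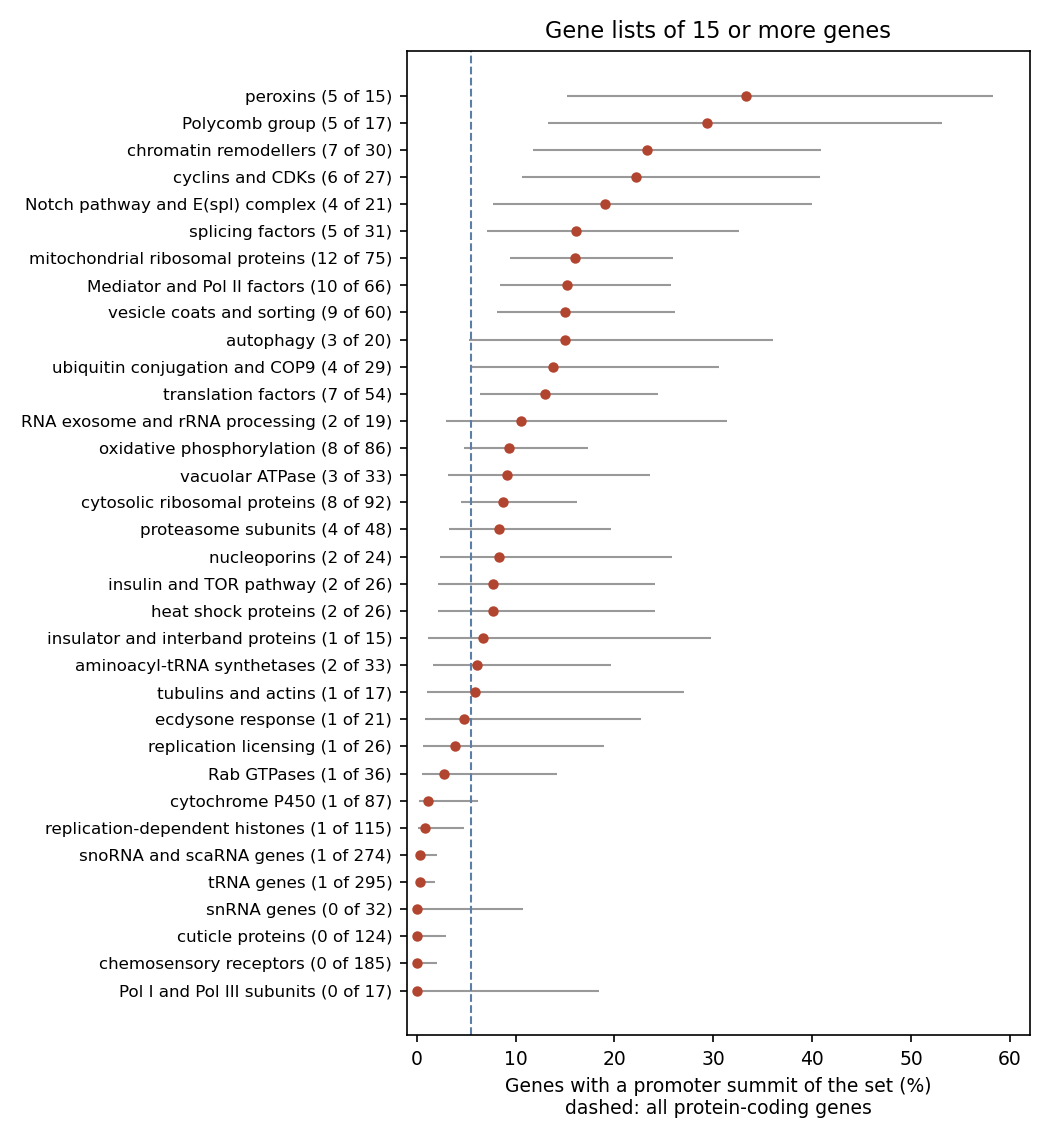
Share of genes (%) with a promoter summit of the replicate 2-only set in each gene list of 15 or more genes (points, with 95% Wilson intervals; counts in the labels). The dashed line is the 5.49% of all protein-coding genes; peroxin, Polycomb and chromatin remodelling genes lie highest and receptor and cuticle genes at 0.

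The 124 members outside promoters were mostly intronic, and 66 of the 90 intron summits (73.3%) lay in an annotated first intron, against 69.9% of the shared intron summits, a difference that was not tested. They lay closer to replicate 1 entries, with a median of 5039 bp against 11282 bp for the promoter members. By arm, 121 members lay on 2L, 143 on 2R, 103 on 3L, 148 on 3R, 4 on chromosome 4 and 110 on the X. In that order these were 19.2%, 22.7%, 16.4%, 23.5%, 0.636% and 17.5% of members. The shared entries had 17.5%, 16%, 22.1%, 23.1%, 0.227% and 21.1%, and the arm shares were not tested. The promoter share was 80.3% against 43.4% on the autosomes and 80.0% against 39.3% on the X (Fisher's exact test p = 9.54e-57 and 5.14e-16). Within 25 kb of dmrt93B itself (3R 21074007 to 21076798) there were 3 members, all at promoters of other genes. RhoGAP93B had a signal of 189, Cortactin, an actin regulator, 84.4 and AnxB9, an annexin, 62.1, at 21134, 9455 and 8089 bp from the gene.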

How the data were processed

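ChIP-seq libraries labelled as dmrt93B from 2 biological replicates were analysed as peak lists. The authors deposited narrowPeak lists, on dm6 per the labels: 30000 entries for each replicate and for the pool, and 4159 in the optimal IDR list. Text deposited beside the lists names 1 control file for both replicates. Aligner, caller, IDR threshold and depth were not given in the sources used here. The deposited signal (peak strength) ranked entries within a list, and the deposited −log10 q value was at its ceiling for all 4159 strongest replicate 2 entries. The control library was not analysed here.

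Summits were compared with Ensembl release 115 (transposable element records left out) and NCBI Release 6. Promoters reached 500 bp either side of a TSS; elsewhere UTRs and coding exons came before other exons, introns and intergenic sequence. Shares were compared by two-sided Fisher's exact tests, adjusted by the Benjamini-Hochberg method over classes, over both promoter measures or over motifs, with a threshold of 0.05. Values of p under alternatives are unadjusted except for motifs. Members, gene lists and motifs were chosen with earlier results of these data known. Named were the 15 strongest members, the 12 strongest promoter members, up to 4 genes per list, the entries next to each limit and those near dmrt93B; other names were chosen after their values were seen. The alternatives varied distance, rank limit, TSS window, comparison set and motif window. Some genes that the rule names are not reported here. The scripts were tested on simulated data. Tools were matplotlib 3.10.9, scipy 1.17.1, pandas 2.3.3, numpy 2.4.6 and Python 3.11.15.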

Additional observations from a re-analysis of the deposited data

How the results depend on the processing

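The number of members, 629, was 152 within the first 2079 ranks and 2468 within 8318 ranks; the other 4 alternatives gave 583 to 763. The excess of promoters over the shared entries, 37.7 points, stayed positive with Fisher's exact p under the threshold in 15 of 16 alternatives, from 9.48 points (the added comparison with entries near an optimal summit alone) to 42.2 points (the added comparison with entries near a replicate 1 summit). Within 8318 ranks it was 27.9. With the replicates exchanged the difference was -2.63 points, with an interval of -11.4 to 7.77 that spans both directions (Fisher's exact test p = 0.645). The upstream share, -5.67 points, weakened to -1.19 with a TSS window of 1000 bp and kept its call in the other 2 alternatives, and the excess of TSSs on both strands kept it in all 3, at 13.4 to 22.7 points. The count of motifs past the threshold, 7, was 3 with windows of 25 bp either side and 2 among promoter entries alone. The cause of these changes was not tested. Leaving out a replicate was not possible, since the rule needs both lists. No paired analysis was possible because there is a single group. Depth is unknown, so a missing replicate 1 entry does not show absence of binding.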

Other observations

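Genes known only by a CG number made up 214 of the 766 protein-coding genes with a promoter member (27.9%), against 6097 of all 13945 (43.7%). This count was made after the gene names were seen and was not tested.

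On the small chromosome 4 there were 4 members and 8 shared entries, with 25% of the members at promoters. Both members nearest to Cals, a calsyntenin gene, lay in a 3' UTR, with signals of 150 and 95.3, and were 34772 and 35045 bp from any replicate 1 summit.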
